A study of Mus musculus with 3 samples.

Results

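The transcripts described here encode 10 enzymes of glycolysis: Hk1, Hk2, Gpi1, Pfkl, Pfkp, Aldoa, Tpi1, Pgk1, Eno1 and Pkm. They were chosen by gene name and make up 10 of the 25638 genes in the deposited count table, and all 10 had counts in every library. The RNA came from wild-type, untreated CD8+ T cells of mouse spleen, with 3 libraries in 3 groups: effector memory, central memory and naive. A naive T cell has not yet been activated by antigen. Central memory cells keep the receptors for lymph node entry, and effector memory cells patrol blood and tissues. How old the mice were, how many gave cells to a library and which markers were sorted on is not given in the sources used here. Each group has 1 library, so no difference has a replicate check, no p-value is given, and every interval covers counting error only.

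Glycolysis turns glucose into pyruvate. Its preparatory phase spends ATP to make triose phosphates, and its payoff phase recovers ATP from them. Several steps can be run by isoenzymes from different genes, which differ in regulation and location, and the phosphorylation of glucose, the phosphofructokinase step and the pyruvate kinase step are the classical control points. Naive T cells depend mostly on mitochondrial respiration, and activated T cells switch to a high rate of glycolysis even where oxygen is plentiful.

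The libraries held 33087462 counts for effector memory, 35846315 for central memory and 26876909 for naive. Levels are given as CPM, counts scaled to a common effective library size by the trimmed mean of M values (TMM). A count of 0 allows up to 0.0938 CPM in effector memory, 0.0837 in central memory and 0.108 in naive (3 counts each). T cell and subset markers were checked first. Cd3e, a chain of the T cell receptor complex, stood at 335 CPM in effector memory, 418 in central memory and 395 in naive. Ccr7, a chemokine receptor for lymph node entry, stood at 31.9 CPM in effector memory, 339 in central memory and 373 in naive, and Cd44, the marker of antigen experience, at 113, 45.8 and 2.95 CPM in the same order. Cd8a, a chain of the CD8 coreceptor, was at 408, 1063 and 1868 CPM in effector memory, central memory and naive. Klrg1, often high on effector cells, was near 0, at 0.782, 2.62 and 0 CPM. The libraries also differed in receptor use: 1 variable segment, Trbv12-1, held 98.4% of all Trbv counts in effector memory and 99.6% in central memory, against 7.13% in naive (exact 95% binomial intervals 97.98% to 98.70%, 99.57% to 99.72% and 6.73% to 7.55%). The memory libraries thus used nearly a single segment and naive did not. In every comparison with naive, memory state and receptor use differ together and cannot be told apart.

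All 10 glycolytic enzyme genes had their highest level in effector memory, a lower one in central memory and their lowest in naive. Together they took 2.07% of all counts in effector memory (interval 2.06% to 2.07%), 0.327% in central memory (interval 0.325% to 0.329%) and 0.200% in naive (interval 0.198% to 0.201%). In effector memory 7 of the 10 were among the 200 most abundant genes by count, in central memory 2 and in naive 0. The largest ratios of effector memory to naive were those of Tpi1, at 50.8-fold, and Hk2, at 46.8-fold, and the smallest was that of Hk1, at 2.46-fold.

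**Figure D1:**
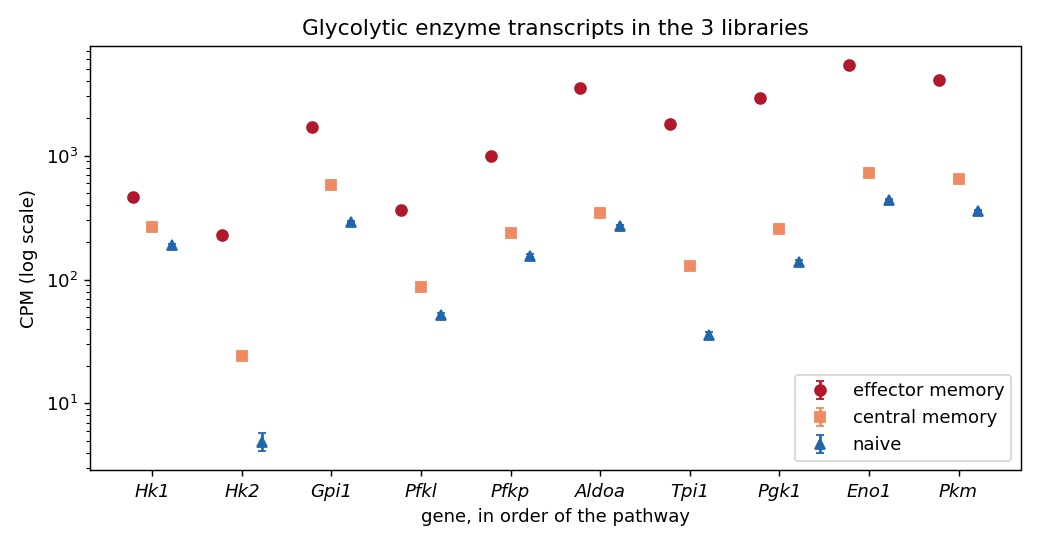
CPM (log scale) of the 10 genes, in pathway order, in the effector memory, central memory and naive libraries; each point is 1 library and bars are 95% counting intervals. Every gene has the same order of libraries, and the widest gap is that of Tpi1, with 1797 CPM in effector memory and 35.4 in naive.

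To be called higher or lower, a gene needed 5 CPM or more in whichever library was higher, a ratio of 2 or more and a 95% exact counting interval of that ratio that excludes 1. Such a call rests on size and is no test. In effector memory against naive, all 10 members were called higher. By the same rule 22.3% of the 10087 genes at 5 CPM in either library were called higher and 15.6% lower. The members' median log2 ratio was 3.57, beside 0.06 over all those genes, and 9 of the 10 differed by at least 4-fold, which 11.2% of the genes did in that direction and 5.19% in the other. In central memory against naive, 2 members, Hk2 and Tpi1, were called higher and 8 passed in neither direction, where 11.2% of 9737 genes were called higher and 5.12% lower. The median there was 0.82, beside 0.14 over all genes, and 1 member, Hk2, reached 4-fold, as did 5.23% of genes upward and 1.98% downward. In effector memory against central memory, 9 were called higher and Hk1 was not, where 14.8% of 9975 genes were called higher and 12.8% lower, and the median was 2.78 beside -0.06. At least 4-fold higher were 8 members, with 6.37% of all genes, and 2.9% of all genes were as much lower. These 3 comparisons share libraries, so they are not independent of each other.

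**Figure D2:**
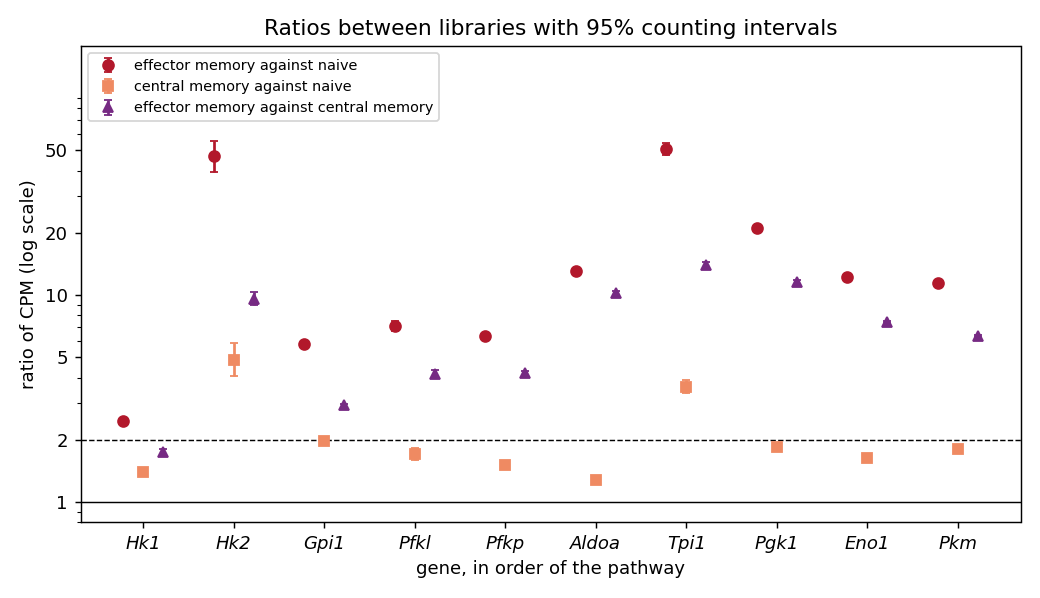
Ratio of CPM (log scale) for each gene in the 3 comparisons (both memory libraries against naive, and effector against central memory), with 95% counting intervals; the solid line marks a ratio of 1 and the dashed line the ratio of 2 used for calls. All points lie above 1, and in central memory against naive Hk2 and Tpi1 alone lie above 2.

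The level of central memory was placed on the log2 scale between naive (0%) and effector memory (100%). Its median position over the 10 genes was 25.8%, from 9.50% for Aldoa to 41.2% for Hk2. All members were thus nearer to naive than to effector memory in the central memory library. Other measures moved in the same order of libraries. The summed level of 10 mitosis genes was 4836 CPM in effector memory, 798 in central memory and 16.9 in naive, and all 10 were called higher in each of the 3 comparisons. Among them Cenpf, which had 2 counts in naive, was at 344, 43.5 and 0.0719 CPM, Bub1 at 172, 15.5 and 0.144, Ccna2 at 279, 46.9 and 0.323, and Aurkb at 213, 28.1 and 0.288. The part that cell division, or receptor use, plays in the glycolytic levels was not tested. From bulk RNA a larger share of cells with a transcript and more transcript per cell cannot be told apart.

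Markers of other spleen cells were mostly low. The 5 B cell markers summed to 2.81 CPM in effector memory, 6.17 in central memory and 30.5 in naive, and Ms4a1 was at 0 in both memory libraries. Markers of erythroid cells, which depend on glycolysis, summed to 0.375, 0.530 and 1.33 CPM. Those of neutrophils were at 0.313, 0 and 0.0719 CPM, and those of monocytes and macrophages at 4.22, 3.99 and 4.28. In the NK cell list the sums were 83.9, 135 and 38.4 CPM. In effector memory and naive most of the sum came from Eomes, which CD8+ T cells also express. In central memory against naive 4 genes of this list were measured, with 3 called higher and 1 neither. Between the memory libraries 3 of 4 measured were called lower in effector memory and 1 neither. Ncr1, typical of NK cells, was at 0 CPM in effector memory, 12.2 in central memory and 0 in naive. CD4 T cell markers summed to 0.719, 2.32 and 6.40 CPM and platelet markers to 2.38, 2.09 and 3.92. The endothelial and stromal list was at 55.0, 172 and 153 CPM, nearly all of it Pecam1, an adhesion molecule that T cells carry too. What any of these cells contribute was not tested.

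**Figure D3:**
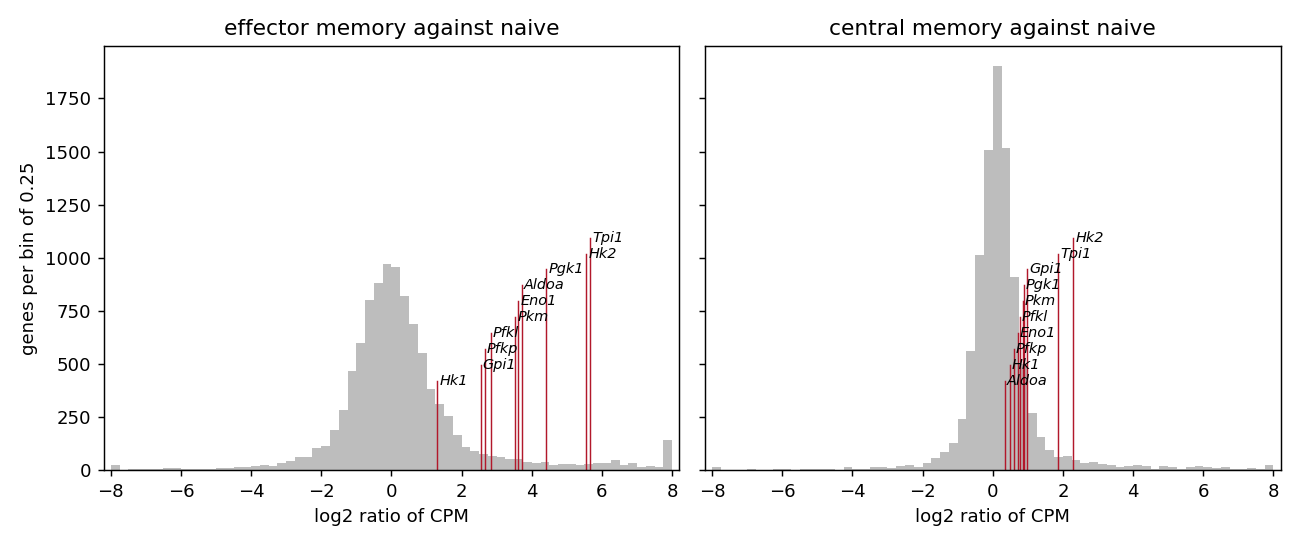
Number of genes per bin of 0.25 in the log2 ratio of CPM, for effector memory against naive (left) and central memory against naive (right), over the genes that reached 5 CPM in 1 of both libraries or more, with the 10 enzyme genes marked; ratios beyond the axis are counted in the end bins. On the left the members lie between 1.30 and 5.67, where the median of all genes is 0.06, and on the right between 0.35 and 2.29, where it is 0.14.

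The first step, the phosphorylation of glucose that traps it in the cell, differed in isoenzyme choice between the libraries, and its difference in share points was the widest of the 4 families compared. Hk1 (ENSMUSG00000037012.18, chromosome 10, 62268855 to 62379908, minus strand) encodes the widely expressed hexokinase 1. It had 14865 counts (465 CPM) in effector memory, 9480 (265 CPM) in central memory and 5258 (189 CPM) in naive. The library values were thus close together beside those of the other members. Hk1 was 2.46-fold higher in effector memory than in naive (interval 2.38 to 2.54) and 1.40-fold higher in central memory than in naive (interval 1.35 to 1.45).

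Hk2 (ENSMUSG00000000628.10, chromosome 6, 82725025 to 82774454, minus strand) encodes hexokinase 2, the inducible isoenzyme of muscle, fat and activated lymphocytes. It had 7373 counts (231 CPM) in effector memory, 861 (24.0 CPM) in central memory and 137 (4.92 CPM) in naive. Hk2 was thus low in naive, intermediate in central memory and high in effector memory. Its ratio of effector memory to naive was 46.8 (interval 39.5 to 55.9), a ratio that 391 of the 10087 genes exceeded, and its ratio of central memory to naive was 4.88 (interval 4.07 to 5.89). Between the memory libraries it was 9.59-fold higher in effector memory (interval 8.94 to 10.3).

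The counts of Hk2 per count of Hk1, a quantity that neither scaling nor gene length can move between libraries, were 0.496 in effector memory, 0.0908 in central memory and 0.0261 in naive. That quotient was 19.0-fold higher in effector memory than in naive (interval 16.0 to 22.6) and 3.49-fold higher in central memory than in naive (interval 2.90 to 4.19). Per kilobase of the union of exons, Hk2 made up 40.6% of hexokinase transcripts in effector memory (interval 39.96% to 41.3%), 11.2% in central memory (interval 10.5% to 11.9%) and 3.53% in naive (interval 2.97% to 4.15%). Hk1 made up 57.3%, 86.3% and 94.7% in the same order. With the length of the longest transcript the Hk2 share was 27.4%, 6.48% and 1.96%, so its size depends on the length used while its order does not. Hk1 was the larger of both in every library with either length.

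Further glucose kinases differed in level. Hk3, the hexokinase typical of myeloid cells, stayed below 5 CPM, with 2.56 CPM in effector memory, 3.27 in central memory and 1.51 in naive. Adpgk, a glucose kinase of the endoplasmic reticulum that uses ADP, had its lowest level in effector memory, with 23.7 CPM in effector memory, 62.0 in central memory and 55.3 in naive. It was 2.33-fold lower in effector memory than in naive (interval 2.14 to 2.55). Per kilobase of the union of exons Adpgk was above Hk2 in central memory, at 6.45 against 4.03 CPM, and in naive, at 5.75 against 0.825. In effector memory it was below Hk2, at 2.47 against 38.6. The hexokinase shares above do not include Adpgk.

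The promoters of both hexokinase genes are shown because the pair encode the same step with very unequal ratios. The sequences are the 250 bases before a start site in RefSeq (build GRCm38.p6), 5′ to 3′ on the gene's strand. Capitals mark ACGTG or GCGTG, the core of the hypoxia response element, read on either strand, so that CACGT and CACGC are matches on the other strand. The Hk2 window is chr6:82774455-82774704 (minus strand), and the Hk1 windows of its 2 start sites are chr10:62379909-62380158 and chr10:62340422-62340671 (minus strand).
Hk2: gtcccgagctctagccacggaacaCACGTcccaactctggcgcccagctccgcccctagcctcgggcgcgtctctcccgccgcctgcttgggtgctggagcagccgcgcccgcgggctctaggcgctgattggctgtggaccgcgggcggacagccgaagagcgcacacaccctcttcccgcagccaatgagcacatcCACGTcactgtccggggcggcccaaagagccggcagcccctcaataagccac
Hk1, first start site: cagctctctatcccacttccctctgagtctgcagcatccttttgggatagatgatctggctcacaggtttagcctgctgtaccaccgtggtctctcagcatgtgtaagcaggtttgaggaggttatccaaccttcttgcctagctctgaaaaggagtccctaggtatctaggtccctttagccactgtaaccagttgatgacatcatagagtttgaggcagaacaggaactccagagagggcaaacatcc
Hk1, second start site: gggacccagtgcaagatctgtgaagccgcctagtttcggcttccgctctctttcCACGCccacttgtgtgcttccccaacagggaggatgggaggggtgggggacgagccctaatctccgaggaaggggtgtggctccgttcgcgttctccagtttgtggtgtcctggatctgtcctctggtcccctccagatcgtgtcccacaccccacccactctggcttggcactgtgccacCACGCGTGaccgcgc
The Hk2 window holds a match 226 and another 52 bases before the start site. The first Hk1 window holds none, and the second holds 3, at 196, 15 and 12 bases before the start, of which the last pair overlap. Both hexokinase genes have these letters in at least 1 window.

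**Figure D4:**
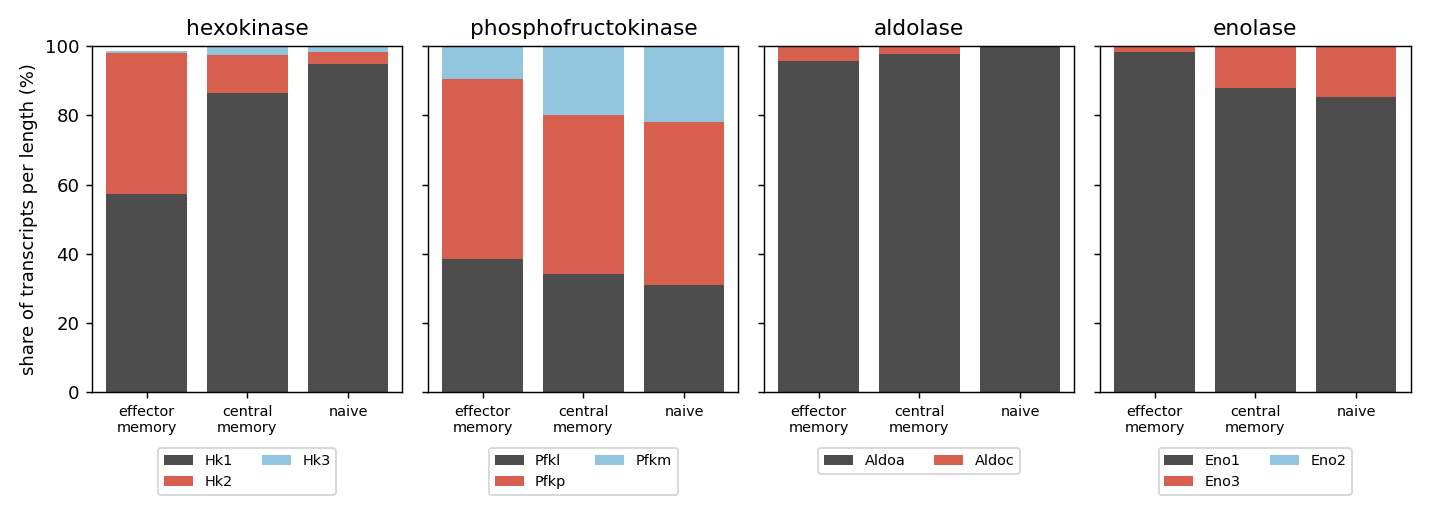
Share of transcripts (%, counts per kilobase of the union of exons) held by each gene of the hexokinase, phosphofructokinase, aldolase and enolase families in effector memory, central memory and naive; each bar is 1 library, and bars stop short of 100% where a minor gene is not drawn. Hk2 holds 40.6% of hexokinase transcripts in effector memory and 3.53% in naive, and Pfkm holds 9.50% of phosphofructokinase transcripts in effector memory and 22.0% in naive.

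Gpi1 (ENSMUSG00000036427.5, chromosome 7, 34201330 to 34230336, minus strand) encodes glucose-6-phosphate isomerase, the second step, which makes fructose 6-phosphate. Its counts were 53933 (1686 CPM) in effector memory, 20561 (574 CPM) in central memory and 8075 (290.2 CPM) in naive. It was 5.81-fold higher in effector memory than in naive (interval 5.68 to 5.95). In central memory against naive the ratio was 1.98 (interval 1.93 to 2.03), just under the ratio of 2 that a call asks for. With 2.94-fold between the memory libraries (interval 2.89 to 2.99), Gpi1 had the smallest ratio of effector memory to central memory after Hk1.

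The third step adds the second phosphate and is the main control point of the pathway. Its enzyme is a tetramer of subunits from Pfkl (liver type), Pfkp (platelet type) and Pfkm (muscle type). Pfkl (ENSMUSG00000020277.10, chromosome 10, 77986947 to 78010083, minus strand) had 11688 counts (365 CPM) in effector memory, 3143 (87.7 CPM) in central memory and 1427 (51.3 CPM) in naive. It was 7.13-fold higher in effector memory than in naive (interval 6.74 to 7.53).

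Pfkp (ENSMUSG00000021196.14, chromosome 13, 6579768 to 6648777, minus strand) had 31615 counts (989 CPM) in effector memory, 8455 (236 CPM) in central memory and 4337 (156 CPM) in naive. Its ratio of effector memory to naive was 6.34 (interval 6.14 to 6.55), close to that of Pfkl. The counts of Pfkp per count of Pfkl were 2.70 in effector memory, 2.69 in central memory and 3.04 in naive, so the pair kept nearly 1 proportion in the memory libraries. That quotient differed between effector and central memory by a factor of 1.01, with an interval of 0.960 to 1.05, and was 0.890 times the naive one in effector memory (interval 0.835 to 0.948).

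The muscle type, Pfkm, moved less. It had 45.1 CPM in effector memory, 25.5 in central memory and 18.2 in naive, a ratio of effector memory to naive of 2.48 (interval 2.24 to 2.75). Per kilobase it held 9.50% of phosphofructokinase transcripts in effector memory, 19.9% in central memory and 22.0% in naive. Pfkp held 51.9%, 45.9% and 47.0%, and Pfkl 38.6%, 34.2% and 31.0%. The order of the 3 genes was the same in every library. The counts of Pfkl per count of Pfkm were 2.88-fold higher in effector memory than in naive (interval 2.56 to 3.23).

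Aldoa (ENSMUSG00000030695.16, chromosome 7, 126795234 to 126800751, minus strand) encodes aldolase A, which splits fructose 1,6-bisphosphate into both triose phosphates. It had 111922 counts (3499.7 CPM) in effector memory, 12253 (342 CPM) in central memory and 7456 (268 CPM) in naive. Central memory and naive lay close together and effector memory stood far above both. Aldoa was 13.1-fold higher in effector memory than in naive (interval 12.8 to 13.4). In central memory it was 1.28-fold higher than in naive (interval 1.24 to 1.31), the smallest such ratio among the members, and a ratio that 3329 of 9737 genes exceeded.

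Aldoc, which encodes the brain-type aldolase C, is not one of the 10 but had the larger ratio. It had 5738 counts (179 CPM) in effector memory, 325 (9.07 CPM) in central memory and 2 (0.0719 CPM) in naive. The ratio of effector memory to naive was 2496, with a wide interval of 691 to 20617 that reflects the 2 counts. Counts of Aldoc per count of Aldoa were 191-fold higher in effector memory than in naive (interval 47.8 to 765), a larger fold than that of Hk2 per Hk1. Even so, Aldoa held 95.6% of aldolase transcripts per kilobase in effector memory (interval 95.5% to 95.7%), 97.7% in central memory (interval 97.4% to 97.9%) and 99.98% in naive (interval 99.91% to 99.997%).

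Tpi1 (ENSMUSG00000023456.15, chromosome 6, 124810586 to 124814296, minus strand) encodes triosephosphate isomerase, which interconverts the triose phosphates and has no isoenzyme. It had 57459 counts (1797 CPM) in effector memory, 4591 (128 CPM) in central memory and 985 (35.4 CPM) in naive. All 3 libraries were far apart. The ratio of effector memory to naive was 50.8 (interval 47.7 to 54.1), which overlaps the interval of Hk2, and 373 of 10087 genes exceeded it. The ratio of central memory to naive was 3.62 (interval 3.38 to 3.88), and that of effector memory to central memory was 14.0 (interval 13.6 to 14.5), the largest of the members.

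The 250 bases before the Tpi1 start site (chr6:124814159-124814408, minus strand) are shown because of this ratio, and those before the Pgk1 start site (chrX:106186850-106187099, plus strand) because the Pgk1 promoter is a classical site of hypoxia-inducible factor binding. Build, strand and capitals are as for the hexokinase genes.
Tpi1: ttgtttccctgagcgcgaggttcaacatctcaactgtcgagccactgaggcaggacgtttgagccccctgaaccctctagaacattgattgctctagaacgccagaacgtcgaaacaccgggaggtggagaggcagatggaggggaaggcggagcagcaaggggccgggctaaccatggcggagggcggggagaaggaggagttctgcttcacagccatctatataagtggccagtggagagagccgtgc
Pgk1: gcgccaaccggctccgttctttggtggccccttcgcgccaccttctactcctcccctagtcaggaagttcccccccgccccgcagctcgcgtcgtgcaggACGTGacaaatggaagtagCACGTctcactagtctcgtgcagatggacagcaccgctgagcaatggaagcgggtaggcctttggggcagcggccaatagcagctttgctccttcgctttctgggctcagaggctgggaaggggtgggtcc
The Tpi1 window holds no match and the Pgk1 window 2, at 150 and 131 bases before the start site. Over all members, 8 of 10 genes (80.0%) had a match in at least 1 of their windows, and 11 of 16 windows did. Of all 32851 promoter windows of this length 38.6% held a match, and of all 27025 genes 41.5% had one in any window. The letters CACGTG, the E-box that MYC can bind, were in 0 of the 16 windows and in 6.02% of all windows. Windows of 1 gene can overlap, CACGTG contains ACGTG, and a match is no evidence of a bound site. Tpi1 and Gpi1 were the 2 genes without a match.

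The sixth step, glyceraldehyde-3-phosphate dehydrogenase, has no member among the 10. Gapdh had 2988 counts (93.4 CPM) in effector memory, 329 (9.18 CPM) in central memory and 396 (14.2 CPM) in naive. These levels are low for a gene of this kind. Of the 50-base windows of its longest coding transcript, 82.5% are found exactly in another annotated gene, across 222 genes, so its counts depend on how reads with several matches were treated, which is not given in the sources used here. It was 6.57-fold higher in effector memory than in naive (interval 5.91 to 7.31) and was 0.645 times the naive level in central memory (interval 0.556 to 0.749). Gapdhs, the sperm-specific form, stood at 8.29 CPM in effector memory, 23.7 in central memory and 7.04 in naive, and 10.1% of its exon bases overlap an antisense gene.

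Pgk1 (ENSMUSG00000062070.12, chromosome X, 106187100 to 106203699, plus strand) encodes phosphoglycerate kinase 1, the first step of the pathway that makes ATP. It had 93690 counts (2929.6 CPM) in effector memory, 9107 (254 CPM) in central memory and 3848 (138 CPM) in naive. Effector memory stood far above both others. The ratio of effector memory to naive was 21.2 (interval 20.5 to 21.9), the next after Tpi1 and Hk2 among the members, and that of central memory to naive was 1.84 (interval 1.77 to 1.91). Pgk2, the testis form, had no count in any library. Pgam1, the phosphoglycerate mutase of the eighth step and no member, stood at 854 CPM in effector memory, 112 in central memory and 48.0 in naive, a ratio of effector memory to naive of 17.8 (interval 16.9 to 18.8). Its ratio of central memory to naive was 2.34 (interval 2.20 to 2.49). Pgam2, the muscle form, had 96 counts in effector memory, 155 in central memory and 113 in naive, below 5 CPM in each. Bpgm, which makes 2,3-bisphosphoglycerate, stood at 6.69 CPM in effector memory, 17.6 in central memory and 14.8 in naive, and was called lower in effector memory than in naive.

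Eno1 (ENSMUSG00000063524.13, chromosome 4, 150236721 to 150248879, plus strand) encodes enolase 1, the widely expressed enzyme of the ninth step, and was the most abundant member by CPM. It had 170724 counts (5338 CPM) in effector memory, 25701 (717 CPM) in central memory and 12173 (437 CPM) in naive. It was 12.2-fold higher in effector memory than in naive (interval 12.0 to 12.4) and 1.64-fold higher in central memory than in naive (interval 1.60 to 1.68). The muscle form, Eno3, hardly differed, with 30.5 CPM in effector memory, 31.5 in central memory and 24.4 in naive, and the neuronal form, Eno2, stayed at 1.75, 0.810 and 0.863 CPM. Eno1 therefore held 98.2% of enolase transcripts per kilobase in effector memory (interval 98.1% to 98.3%), 87.9% in central memory (interval 87.3% to 88.5%) and 85.1% in naive (interval 84.1% to 86.1%). The counts of Eno1 per count of Eno3 were 9.77-fold higher in effector memory than in naive (interval 8.84 to 10.8).

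Pkm (ENSMUSG00000032294.17, chromosome 9, 59656368 to 59679375, plus strand) encodes pyruvate kinase of the muscle type, the last step, which makes pyruvate and ATP. It had 131407 counts (4109 CPM) in effector memory, 23179 (647 CPM) in central memory and 9942 (357 CPM) in naive. The ratio of effector memory to naive was 11.5 (interval 11.3 to 11.7), and that of central memory to naive was 1.81 (interval 1.77 to 1.85). Pklr, the liver and red cell form, had 1 count in central memory and none in effector memory or naive. Pkm makes the splice forms PKM1 and PKM2, and a count per gene does not tell them apart. Of the 4 splicing factors listed for that choice, none was called in either comparison with naive, and the median log2 ratio of effector memory to naive was 0.67. Ptbp1 had 554, 316 and 353 CPM in effector memory, central memory and naive, and Hnrnpa1, at 1895, 658 and 1009 CPM, was the 1 factor called between the memory libraries. With DESeq2 size factors Hnrnpa2b1 was called there too, at a ratio of 2.04.

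Copies in the genome and overlapping genes limit how far levels can be set against each other. The share of 50-base windows found exactly in another annotated gene was 72.2% for Eno1, 68.0% for Pgk1, 34.4% for Pkm, 25.3% for Gpi1, 17.1% for Pfkp, 13.5% for Aldoa and 7.51% for Tpi1, and below 3% for Hk1, Pfkl and Hk2. These shares include genes that overlap at the same place. For Pfkp the only match was such a gene, Pitrm1, so its share is no copy elsewhere. Gm26762 and Gm49759, which overlap Gpi1 and Pkm, were among the matches of those genes. Eno1b, the processed copy of Eno1, stood at 200.3 CPM in effector memory, 29.0 in central memory and 38.5 in naive. There were 26.7 counts of Eno1 per count of Eno1b in effector memory, 24.8 in central memory and 11.4 in naive, so the ratios of Eno1 and its copy to naive differ by a factor of 2.35 in effector memory (interval 2.19 to 2.51). On the opposite strand, exons of Pitrm1 cover 5.58% of the exon bases of Pfkp and those of Gm26762 11.5% of Gpi1, and whether counting used strand is not stated. On the same strand, exons of Gm49759 cover 15.3% of the exon bases of Pkm, which counting by strand could not separate.

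Ordered by step, with all listed genes of a step summed per kilobase, the ratio of effector memory to naive was 3.35 for hexokinase, 5.81 for glucose-6-phosphate isomerase, 5.74 for phosphofructokinase, 13.7 for aldolase and 50.8 for triosephosphate isomerase. It was 3.55 for glyceraldehyde-3-phosphate dehydrogenase, 21.2 for phosphoglycerate kinase, 15.0 for phosphoglycerate mutase, 10.6 for enolase and 11.5 for pyruvate kinase. The first 3 steps thus had smaller ratios than any other step except the sixth, whose counts are uncertain. The sum of the sixth step includes Gapdhs, at a ratio of 1.18, and Gapdh alone had 6.57. In central memory and naive Gapdhs was the larger part of that sum, at 14.7 and 4.38 CPM per kilobase against 2.22 and 3.44 for Gapdh. Among the members themselves, the 3 of the payoff phase lay between 11.5 and 21.2-fold and the 7 of the preparatory phase between 2.46 and 50.8-fold, so the phases overlap.

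Levels per kilobase also had a shape along the pathway. In effector memory, phosphoglycerate kinase stood at 1306 CPM per kilobase, aldolase at 1257, enolase at 1010.3, pyruvate kinase at 822 and triosephosphate isomerase at 653. These were followed by mutase at 435, glucose-6-phosphate isomerase at 261, phosphofructokinase at 142, hexokinase at 97.5 and the dehydrogenase at 27.8. The 3 lowest steps in effector memory were thus phosphofructokinase, hexokinase and the dehydrogenase, also with the length of the longest coding transcript. In naive, enolase stood at 95.5 CPM per kilobase, aldolase at 92.1, pyruvate kinase at 71.4 and phosphoglycerate kinase at 61.6. Then came glucose-6-phosphate isomerase at 45.0, hexokinase at 29.1, phosphoglycerate mutase at 29.0, phosphofructokinase at 24.8, triosephosphate isomerase at 12.9 and glyceraldehyde-3-phosphate dehydrogenase at 7.82. Between hexokinase and mutase in naive the difference was 0.0934 CPM per kilobase with a counting interval of -1.63 to 1.81, which includes 0, and every other pair of neighbours in these orders differed beyond counting error. With the coding transcript length hexokinase and mutase were no longer neighbours. Counted from the highest step, triosephosphate isomerase thus had rank 5 of 10 in effector memory, rank 7 in central memory, at 46.6 CPM per kilobase, and rank 9 in naive. With the coding transcript length its ranks were 5, 8 and 9, while phosphoglycerate kinase had rank 4 instead of 1 in effector memory.

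**Figure D5:**
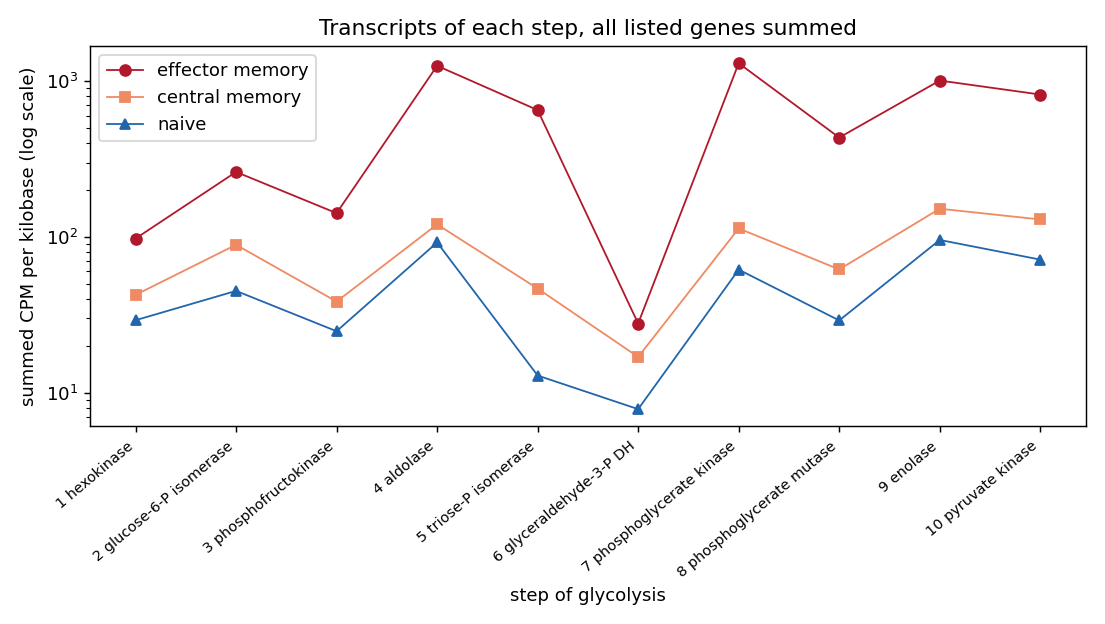
Summed CPM per kilobase of exon (log scale) of all listed genes of each of the 10 steps in the effector memory, central memory and naive libraries; lines join the steps for reading only. Triosephosphate isomerase has the widest gap between libraries, at 653 in effector memory and 12.9 in naive. The low sixth step sums the uncertain counts of Gapdh with those of Gapdhs, which is the larger part in central memory and naive.

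Genes around the pathway were counted with the same rule. By it, 22.3% of all genes at 5 CPM were higher and 15.6% lower in effector memory than in naive. In central memory against naive these shares were 11.2% and 5.12%, and in effector memory against central memory 14.8% and 12.8%. Of 16 further genes of the 10 steps, 8 reached 5 CPM in effector memory or naive, and in that comparison 4 were higher (Aldoc, Pgam1, Gapdh and Pfkm), 2 lower (Adpgk and Bpgm) and 2 neither, with a median log2 ratio of 0.82. In central memory against naive 3 of them were higher and none lower, and between the memory libraries 3 were higher and 3 lower in effector memory. Among the 6 genes of glucose and lactate transport and lactate dehydrogenase, 4 were higher in effector memory than in naive, with a median of 3.28, and in central memory 1 was higher and 1 lower than in naive. Slc16a3, a lactate exporter, stood at 445, 11.8 and 1.22 CPM in effector memory, central memory and naive. Ldha, which turns pyruvate into lactate, stood at 3911, 486 and 338 CPM, a ratio of effector memory to naive of 11.6 that is close to that of Pkm, the step before it. The glucose transporters Slc2a3 and Slc2a1 were 12.6-fold and 8.16-fold higher in effector memory than in naive. Ldhb was 4.87-fold lower in central memory than in naive, and Slc16a1 stood at 110 CPM in effector memory, 61.8 in central memory and 55.6 in naive.

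The regulators of phosphofructokinase had small levels. Of 7 listed, 5 were measured in effector memory against naive, with 2 higher, Pfkfb1 and Pfkfb4, and 1 lower, Pfkfb2, and a median of 0.95. Of all genes, 22.3% were higher and 15.6% lower in that comparison. None of the listed regulators was called in central memory against naive. Pfkfb3, the most abundant of these makers of the activator fructose 2,6-bisphosphate, stood at 78.1 CPM in effector memory, 54.4 in central memory and 40.3 in naive. Its ratio of effector memory to naive was 1.94 (interval 1.81 to 2.08), below the limit for a call. Fbp1 and Fbp2, which encode the opposing fructose bisphosphatases, had no count in any library.

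Routes that leave or follow glycolysis had smaller median ratios of effector memory to naive than the 10 members. Of all genes, 22.3% were higher and 15.6% lower in that comparison. Of 7 pentose phosphate genes, 4 were higher in effector memory than in naive, with a median log2 ratio of 1.16. Transketolase (Tkt), which returns sugars to glycolysis, was at 740 CPM in effector memory, 294 in central memory and 150.01 in naive, and Pgd, Pgls and G6pdx were 2.77, 2.76 and 2.23-fold higher in effector memory than in naive. Of 12 measured genes of pyruvate entry into mitochondria, 1 was higher, Pdk3, 1 lower, Pdk2, and 10 neither, with a median of 0.27. Of 15 genes of the TCA cycle, 3 were higher, about the share of all genes. These were Fh1, Sdhd and Mdh2, with ratios of 3.40, 2.90 and 2.19, and the median log2 ratio of the 15 was 0.72. In central memory against naive none of these 15 was called. Of 6 measured genes of gluconeogenesis and side branches, 4 were higher in effector memory than in naive: Pcx at 13.2-fold, Pck2 at 11.04-fold, Phgdh at 3.15-fold and Gpd2 at 2.07-fold, with a median of 1.35.

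Factors known to drive glycolytic genes were measured too. Hif1a had 198 CPM in effector memory, 136 in central memory and 98.2 in naive, and its ratio of effector memory to naive of 2.02 (interval 1.93 to 2.11) stood at the limit of a call. Myc stood at 156 CPM in effector memory, 303 in central memory and 178 in naive, with its highest level in central memory. The order of the libraries for the Myc transcript thus differed from that of every member. Protein activity was not measured, and the part that any of these factors plays in the members' levels was not tested. Of the 5 factors listed, 4 were measured, with a median log2 ratio of effector memory to naive of -0.15. Arnt and Mlxip were called in no comparison, and Mlxipl stayed below 0.3 CPM in every library.

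The genes outside the list whose log2 ratios lay nearest to the members' medians (3.57 in effector memory against naive and 0.82 in central memory against naive) included Tmem97, Fam162a, Polq and Kif18a. They were among the nearest 5 of 8043 genes with at least 20 CPM in some library and a count in all 3, at distances of 0.107 to 0.202 on the log2 scale. Tmem97, for example, stood at 63.6 CPM in effector memory, 9.18 in central memory and 5.03 in naive.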

How the data were processed

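The authors deposited 1 table of raw counts of reads for each gene symbol, with 1 column each for effector memory, central memory and naive (TEM, TCM and TN, matched to the sample titles by their abbreviations). Build mm10 and the tools featureCounts 1.5.0-p3, HISAT2 2.0.5 and CASAVA are listed in the submitters' processing notes. Not given in the sources used here were annotation, strandedness and how multi-mapping reads were treated, which bears on Gapdh, Eno1, Pgk1 and Pkm.

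Counts were scaled with TMM factors (edgeR 4.0.16, R 4.3.3; 0.967 for effector memory, 0.999 for central memory, 1.04 for naive). Ratios carry 95% exact (Clopper-Pearson) counting intervals. Calls needed 5 CPM, a ratio of 2 and an interval excluding 1. The rule was tested on simulated counts that vary by counting error only, so that test cannot show the spread between replicate libraries. Lengths, positions and sequence copies came from GENCODE M21 (GRCm38), which names 98.7% of the genes; shares per length use the union of exons with the makeup of the other genes held fixed. Step sums carry normal-approximation counting intervals. Promoters came from RefSeq (GRCm38.p6). Alternatives were upper quartile factors, total counts, size factors from DESeq2 1.42.0, other limits, CPM + 1 and other lengths.

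The text names all 10 members, the other step genes at 1 CPM or more, the lactate and glucose genes, up to 4 called genes of each other list, and the nearest patterns, less a few genes that are not reported here; other genes named, among them markers, genes at 0 and genes that were not called, were chosen after their values were seen. The members and lists were chosen with earlier results of these data known. Python 3.11.15, NumPy 2.4.6, SciPy 1.17.1, pandas 2.3.3 and matplotlib 3.10.9 were used.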

Additional observations from a re-analysis of the deposited data

How the results depend on the processing

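The order effector memory, central memory, naive held for all 10 genes under every scaling. Other scalings shifted all genes alike, by at most 0.12 downward on the log2 scale (-0.12, upper quartile factors, central memory against naive). Calls of genes around the pathway near a ratio of 2 depended on the scaling. In effector memory against naive Hif1a and Pfkfb4 lost their calls under all 3 other scalings, and Gpd2 lost its call, and Ldhb was called lower, with total counts and upper quartile factors. In central memory against naive Pdk2 and G6pc3 lost theirs under all 3. Between the memory libraries Pfkfb1 and Hnrnpa2b1 were called higher with DESeq2 size factors and Myc lower with total counts. The members' median log2 ratio of effector memory to naive was 3.47 with total counts, 3.53 with DESeq2 size factors and 3.46 with upper quartile factors, against 3.57. In central memory against naive it was 0.71 with DESeq2 size factors and 0.69 with upper quartile factors, against 0.82. In effector memory against central memory it was 2.73 with total counts, 2.86 with DESeq2 size factors and 2.80 with upper quartile factors, against 2.78. The number called higher in central memory against naive was 8 at a ratio of 1.5, where 22.0% of all genes were called higher, and 1 at a ratio of 4, against 2. It did not leave 1.5 times the reported number under another scaling or minimum level.

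Isoenzyme shares depended on the length used, and each value follows for effector memory, central memory and naive. The share of Hk2 was 27.4%, 6.48% and 1.96% with the longest transcript, the same with the longest protein-coding transcript (a choice made after seeing the data), and 32.9%, 8.23% and 2.52% with no length correction. The share of Pfkp was 67.7%, 63.7% and 65.2% with the longest protein-coding transcript and 70.7%, 67.6% and 69.2% with no length correction. In effector memory it was 50.1% with the longest transcript. For Aldoa the share was 97.2% in effector memory and 98.5% in central memory with either transcript length, and 95.1% and 97.4% with no correction. For Eno1 it was 99.2%, 94.5% and 93.1% with either transcript length, and 99.4%, 95.7% and 94.5% with no correction. No paired analysis was possible because each group has 1 library. The depth leaves counting error small for the members, except for the 137 counts of Hk2 in naive.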
